A study of Mus musculus with 12 samples.

Results

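Small nucleolar RNAs (snoRNAs) are short stable RNAs of the nucleolus, most of them cut from the introns of other genes during or after splicing. Box C/D snoRNAs (Snord genes) guide the methylation of ribose in ribosomal and spliceosomal RNA, and box H/ACA snoRNAs (Snora genes) guide the conversion of uridine to pseudouridine. In mammals many of their host genes encode ribosomal proteins, translation factors or nucleolar proteins, while other hosts are spliced RNAs with no known protein. Mature snoRNAs carry no poly-A tail.

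The loci described here were chosen by their level: they are the entries of the deposited expression table whose name begins with Snora or Snord and which reached 1 FPKM (fragments per kilobase of transcript, scaled to the library's mapped reads) in at least 3 of 12 libraries. The table held 103 such entries among 23352, and 87 of them passed: 56 of 67 box C/D and 31 of 36 box H/ACA entries. The 12 libraries came from hippocampus of C57BL/6J mice in 4 groups of 3: N40K transgenic mice (TG) and wild-type mice (WT), each at 3 and 12 months of age. N40K is a truncated form of U1-70K, the protein of the U1 spliceosomal particle encoded by Snrnp70. Its transgene was driven in neurons by a modified CaMKIIa promoter, and all transgenic mice came from 1 line, Tg396, so the insertion site and the transgene cannot be told apart. The study set transgenic against wild-type mice at each age. Each library was taken as 1 mouse, which the labels do not state, so p-values may measure technical spread.

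Because the level chose the loci, the values at the threshold are given as a description. The loci just inside were Snord70, Snord123 and Snora15, whose third-highest values were 1.04, 1.06 and 1.07 FPKM. Just outside lay Snord110 at 0.849, Snord93 at 0.794 and Snora69 at 0.781 FPKM. Of the 87 loci, 70 were at 1 FPKM or more in all 12 libraries. Another 8 (Snora15, Snora47, Snora74a, Snord1c, Snord23, Snord43, Snord70 and Snord123) would have kept fewer than 3 such libraries if 1 group were left out. Snora15 and Snord70 reached 1 FPKM in just 3 libraries, which were not of 1 group. Without the libraries of 1 age, 11 loci would have kept fewer than 3. Where 1 group or age held most of the passing libraries, a difference was built into the choice. The only locus of the imprinted Snord115 and Snord116 clusters in the table, Snord116l2, was listed at 0 in every library.

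The box class of each locus could be checked in its sequence, since both classes are named for short motifs. The C box was searched as TGATGA in the first 25 bases, the D box as CTGA in the last 25 bases and the ACA box as ACA in the last 10 bases, on the transcribed strand only. All 87 loci had a transcript of the same name in GENCODE M21 (GRCm38), from which the sequences were read. TGATGA was found in 34 of 56 box C/D loci and 0 of 31 box H/ACA loci, against 21.8% of all 1507 GENCODE snoRNA transcripts. CTGA was found in 55 of 56 and 5 of 31, against 57.5% of all, and ACA in 6 of 56 and 29 of 31, against 47.4%. The D box and ACA motifs thus went with the name in all but a few loci, while the C box letters were absent from the window in many box C/D loci, Snord19, Snord34 and Snord71 among them. The box C/D loci printed next differed between genotypes or ages, with TGATGA and CTGA in capitals where they lie in these windows.
Snord19: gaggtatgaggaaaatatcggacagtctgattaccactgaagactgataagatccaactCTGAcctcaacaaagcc
Snord69: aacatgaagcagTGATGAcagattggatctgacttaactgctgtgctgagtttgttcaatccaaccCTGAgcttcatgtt
Snord53: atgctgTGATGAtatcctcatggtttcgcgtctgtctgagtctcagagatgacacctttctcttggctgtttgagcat
Snord82: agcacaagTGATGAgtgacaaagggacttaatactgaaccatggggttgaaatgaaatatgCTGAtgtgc
Snord34: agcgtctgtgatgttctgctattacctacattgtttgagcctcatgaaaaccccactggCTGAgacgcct
Snord64: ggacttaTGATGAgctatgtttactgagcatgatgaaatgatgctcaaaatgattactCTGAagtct
Snord71: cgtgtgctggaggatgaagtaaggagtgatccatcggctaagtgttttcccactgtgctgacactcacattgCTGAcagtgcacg

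The box H/ACA loci that the same comparisons turned on are shown with the ACA near the 3′ end in capitals. Snora2b and Snora34 share 1 host gene, and their difference by age ran in opposite directions.
Snora31: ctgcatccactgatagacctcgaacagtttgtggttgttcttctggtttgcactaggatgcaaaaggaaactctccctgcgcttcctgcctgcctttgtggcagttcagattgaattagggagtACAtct
Snora28: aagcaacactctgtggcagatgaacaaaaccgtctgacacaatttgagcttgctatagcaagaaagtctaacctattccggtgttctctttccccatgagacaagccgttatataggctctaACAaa
Snora23: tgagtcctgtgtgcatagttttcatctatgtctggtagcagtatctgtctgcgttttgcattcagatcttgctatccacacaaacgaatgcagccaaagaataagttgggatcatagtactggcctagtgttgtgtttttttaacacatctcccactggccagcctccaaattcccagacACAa
Snora47: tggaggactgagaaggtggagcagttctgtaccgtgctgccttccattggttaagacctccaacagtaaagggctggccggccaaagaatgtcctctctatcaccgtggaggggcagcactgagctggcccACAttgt
Snora2b: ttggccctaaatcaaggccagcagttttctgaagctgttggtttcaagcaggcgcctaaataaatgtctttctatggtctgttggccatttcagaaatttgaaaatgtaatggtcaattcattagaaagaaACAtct
Snora34: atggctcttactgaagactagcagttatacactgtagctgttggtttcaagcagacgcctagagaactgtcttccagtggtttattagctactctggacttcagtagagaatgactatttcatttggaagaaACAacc

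The depth behind these loci was modest. Steps between the lowest FPKM values of short loci gave 39.95 to 97.2 M mapped reads a library, and with RefSeq lengths 97.3% of the loci's values came out as whole reads within 0.05 of a read. A locus held a median of 47.8 reads a library, from 2.33 to 899.5. The mean was under 10 reads for 8 loci and 100 or more for 29. Among 348 combinations of locus and group the variance between libraries was a median of 1.16 times the variance of counting, 1.01 times below 20 reads and 1.41 times at 100 reads or more. With 3 libraries a group, the median of such a ratio lies below 1 when counting is the only spread, so these medians understate the excess over counting. Counting error was still a large part of the spread of the scarcer loci. In 57 loci the RefSeq length was shorter than the 100-base read, so a read aligned over all its bases would reach beyond such a locus. Alignments were not examined, and how many reads did so is not known.

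The libraries themselves differed in a few ways that bear on the results below. The Snrnp70 entry read 173.0 ± 10.5 FPKM (SD, n = 3) in WT and 392.4 ± 13.1 in TG at 3 months, and 122.4 ± 23.0 and 294.5 ± 31.9 at 12 months, so all TG libraries stood above all WT libraries. Xist reads were present in WT replicates 2 and 3 and in TG replicate 3 at 3 months. They were near 0 in the other 9 libraries, so sex was not balanced at 3 months, nor between the ages. The ages also carry different series of sample identifiers, so age and processing series cannot be told apart. Summed choroid plexus markers ran from 28.8 to 5898.2 FPKM and overlapped in all groups. Of 34 marker genes of hippocampal cell types and neighbouring regions all but 1, a marker of thalamus or striatum, averaged 1 FPKM or more.

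Levels spanned more than 2 orders of magnitude, and the top 10 loci held 50.9% of the summed mean FPKM. Mean levels over the 12 libraries ran from 0.646 to 181.9 FPKM for box C/D loci, with a median of 10.4, and from 0.815 to 113.7 FPKM for box H/ACA loci, with a median of 6.09. The highest box C/D loci were Snord37 in Eef2, the gene of the translocating elongation factor, at 181.9 FPKM, and Snord34 in the ribosomal protein gene Rpl13a at 143.1 FPKM. Snord68 in Rpl13, Snord33 in Rpl13a, Snord91a in Tsr1 and Snord83b in Rpl3 followed at 89.6, 89.2, 68.8 and 55.3 FPKM. Among box H/ACA loci Snora68 led with 113.7 FPKM, ahead of Snora81 in the helicase gene Eif4a2 at 75.6 FPKM. Snora52 in Rplp2, Snora64 in Rps2 and Snora62 in Rpsa stood at 65.9, 64.7 and 58.2 FPKM, with ranges that overlapped across libraries.

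**Figure D1:**
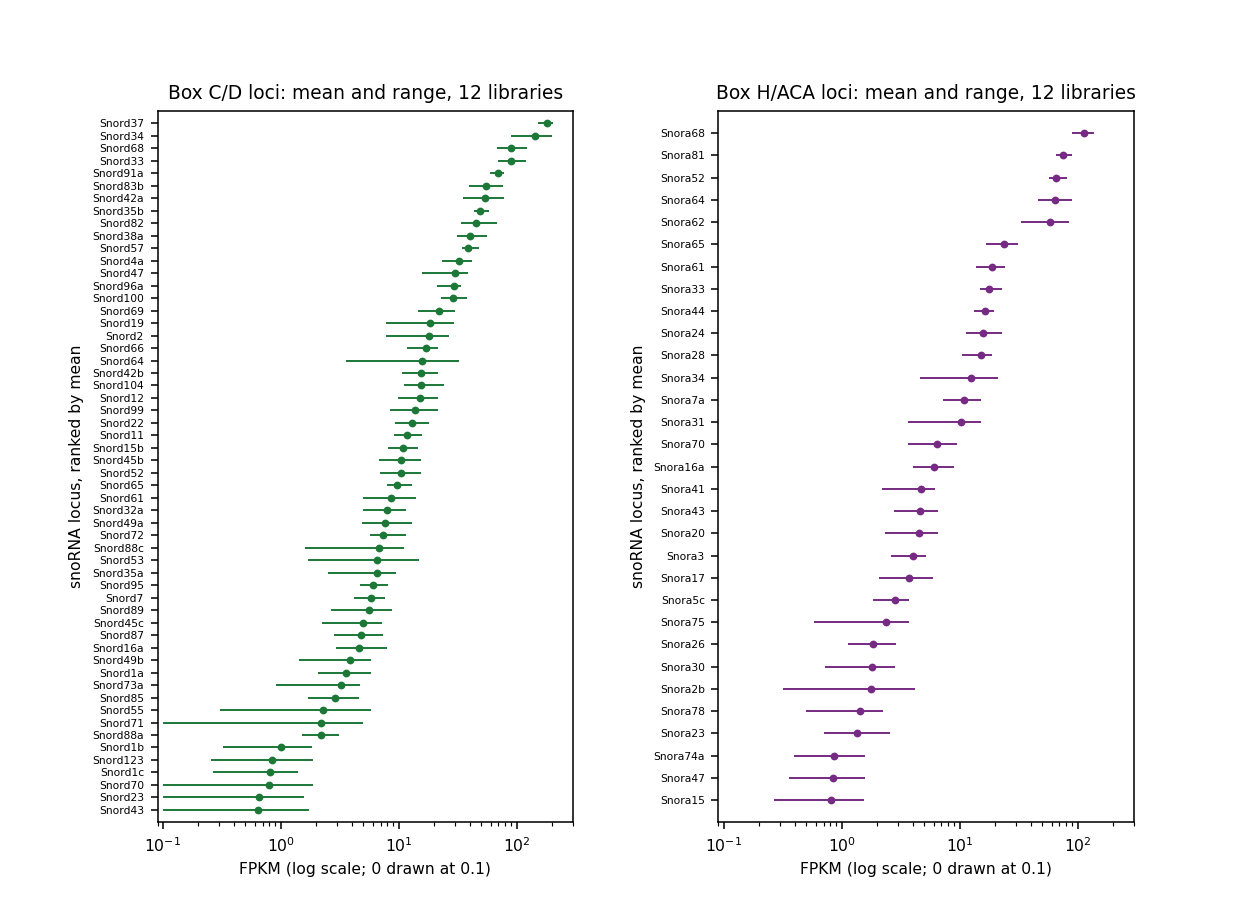
Mean FPKM over the 12 libraries (points) and the range from the lowest to the highest library (lines) of the 56 box C/D loci (left) and the 31 box H/ACA loci (right), on a log axis where 0 is drawn at 0.1. Snord37 and Snora68 are highest, and the lowest loci reach 0 in some libraries.

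A host gene on the same strand was found in the table for 84 of the 87 loci, 60 genes in all. Of these hosts 17 held more than 1 of the loci, 41 loci together, so the loci are not independent of each other. Ribosomal protein genes hosted 27 loci. In GENCODE M21, 37 loci lay in an intron of every transcript of the host, 30 lay in an exon of a transcript with a retained intron, and 15 in an exon of another host transcript. Across 84 pairs the level of a locus and that of its host had a Spearman correlation of 0.50 (0.42 over 54 box C/D and 0.62 over 30 box H/ACA pairs). These pairs share libraries and some share a host, and the value is a description. The median locus stood at 0.273 times its host for box C/D and 0.214 times for box H/ACA, and 6 and 2 loci stood above their host. In these values reads from a mature snoRNA and reads from an unspliced or retained host intron cannot be told apart.

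At 3 months 4 of the 87 loci were higher in transgenic than in wild-type hippocampus and 0 were lower at a limma adjusted p under 0.05, here called. All 4 were box C/D loci. That is 4.60% of the loci, beside 11.4% of all 13945 entries tested (7.95% higher, 3.49% lower), and 18 of the loci had an unadjusted limma p under 0.05. The median difference was 0.0251 for box C/D and 0.0203 for box H/ACA loci on the log2(FPKM + 1) scale, beside 0.0201 over all entries. None of the 31 box H/ACA loci was called by limma, and 7 had an unadjusted p under 0.05.

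Snord53, in an intron of Wdr43, a gene of the small-subunit processome, read 3.85, 3.15 and 1.7 FPKM in WT and 5.3, 7.79 and 6.63 FPKM in TG mice. Every TG library was above every WT library. The difference was 0.99 ± 0.26 (SE) on the log2(FPKM + 1) scale (limma adjusted p = 0.0336).
Snord55 read 0.305, 0.458 and 0.329 FPKM in WT and 0.791, 5.8 and 4.49 FPKM in TG mice, a difference of 1.58 ± 0.39 (limma adjusted p = 0.0265). The WT values rest on 2 to 3 reads, and TG replicate 1 stood far below the other TG libraries.
Snord95, in Rack1, a gene of a ribosomal scaffold protein, read 5.78, 4.73 and 4.71 FPKM in WT and 7.72, 6.65 and 8.1 FPKM in TG mice (0.48 ± 0.13, limma adjusted p = 0.0325). Snord70, in the box C/D core gene Nop58, rested on 0 to 1 reads in WT and 2 to 5 reads in TG libraries (0.79 ± 0.20, limma adjusted p = 0.0249). It reached 1 FPKM in only 3 of the 12 libraries of both ages. The largest difference downwards, -0.65 ± 0.21 for Snord49a, was not called (limma adjusted p = 0.0703), although its TG values of 7.63, 6.41 and 4.84 FPKM all lay below the WT values of 12.9, 11.1 and 7.65 FPKM.

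The 3-month calls were fragile. Without WT replicate 2 or without TG replicate 3 at that age 0 loci were called, and without WT replicate 1 or TG replicate 2 the count was 2. Leaving out 1 library of that age, the differences were 0.74 to 1.05 for Snord53 and 1.2 to 1.62 for Snord55 in the fits where they lost the call. Without the 3 libraries with Xist reads, which leaves 1 WT library at 3 months, 0 were called. Groups that did not overlap were found for 10 loci higher and 5 lower in TG mice, beside 20.4% and 11.5% of all entries. Both directions together make 31.9% of all entries. Of these loci, 9 higher and 2 lower were box C/D, and 1 higher and 3 lower were box H/ACA. The sum of 4 astrocyte markers also did not overlap at 3 months, at 271.7 to 283.3 FPKM in WT and 287.4 to 293.8 FPKM in TG libraries. Only Gfap among them was separated, at 74.8, 78.2 and 80.5 FPKM in WT and 86.1, 91.3 and 89.7 FPKM in TG mice, while Aqp4, Aldh1l1 and Slc1a3 overlapped, and its part was not tested.

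At 12 months 13 loci were called, 10 higher and 3 lower in transgenic hippocampus. The share of 14.9% compares with 18.9% of all entries (11.2% higher, 7.71% lower). Box C/D loci gave 6 higher and 2 lower, and box H/ACA loci 4 higher and 1 lower. The median difference was 0.0926 for box C/D and 0.21 for box H/ACA loci, beside 0.00656 over all entries, and 22 of 31 box H/ACA loci had a positive difference. Over 211 tested miRNA loci, which are short as well, the median was 0.18, with 30 higher and 8 lower.

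Snord19 and Snord69 both lie in Gnl3, the gene of the nucleolar GTP-binding protein nucleostemin. At 12 months Snord19 read 7.76, 7.93 and 13.4 FPKM in WT and 29.5, 27.3 and 23.8 FPKM in TG mice. Every TG library stood well above every WT library. The difference was 1.42 ± 0.17 (limma adjusted p = 4.63e-04), and at 3 months, with WT at 16.1, 15.9 and 12.1 FPKM and TG at 23.8, 22.3 and 19.5 FPKM, it was 0.55 ± 0.17 (limma adjusted p = 0.0669). Snord69 read 23.9, 14.5 and 20.8 FPKM in WT and 30.1, 25.9 and 28.5 FPKM in TG mice at 12 months. The groups did not overlap, and the difference was 0.52 ± 0.14 (limma adjusted p = 0.0291). WT replicate 2 was the low value, and without it the difference was 0.32 and no longer called. The host Gnl3 itself was higher in TG mice by 0.42 at 3 months and by 0.56 at 12 months (limma adjusted p = 0.00278 and 4.31e-04). Relative to Gnl3, Snord19 stood at -1.02, -0.81 and -0.26 on the log2 scale in WT and at 0.26, 0.14 and 0.09 in TG mice at 12 months, while Snord69 overlapped between the genotypes.

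Snord53 in Wdr43 read 5.48, 2.32 and 4.85 FPKM in WT and 12.4, 14.7 and 10.6 FPKM in TG mice at 12 months. The lowest TG library stood well above the highest WT library, and the difference was 1.42 ± 0.26 (limma adjusted p = 0.00446). Its host Wdr43 rose too, by 0.28 at 3 months and 0.46 at 12 months (limma adjusted p = 0.00222 and 9.02e-05). Snord19, Snord53 and Snord66 in Eif4g1 were the 3 loci whose TG libraries stood above all WT libraries at both ages, beside 10.3% of all entries, and 0 loci stood below at both, beside 5.78%. For 2 loci, Snord35b and Snora70, the groups did not overlap at either age and the direction changed between the ages, beside 1.29% of all entries.

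Snord82, in the nucleolin gene Ncl, went the other way. It read 55.0, 68.3 and 60.9 FPKM in WT and 49.2, 43.5 and 45.5 FPKM in TG mice at 12 months, with no overlap. The difference was -0.40 ± 0.07 (limma adjusted p = 0.00447), while at 3 months WT libraries at 36.8, 38.4 and 39.0 FPKM overlapped TG libraries at 34.9, 33.4 and 37.5 FPKM. Ncl differed by -0.21 at 3 months (limma adjusted p = 0.00993) and by -0.0425 at 12 months (limma adjusted p = 0.514). The other locus in Ncl, Snora75, differed by 0.43 ± 0.27 at 12 months and was not called (limma adjusted p = 0.291).

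Snora31, in an intron of Tpt1, which encodes the translationally controlled tumour protein, gave the largest box H/ACA difference. Its values at 12 months were 5.41, 3.62 and 5.06 FPKM in WT and 10.9, 10.9 and 9.16 FPKM in TG mice. All TG libraries were above all WT libraries, by 1.00 ± 0.13 (limma adjusted p = 5.92e-04). At 3 months WT libraries read 11.9, 11.3 and 14.8 FPKM and TG libraries 13.0, 15.1 and 12.7 FPKM, which overlap (0.10 ± 0.13, limma adjusted p = 0.676). The WT level at 12 months, 4.7 ± 0.945 FPKM (SD, n = 3), was thus the one that stood apart from the other 3 groups. Tpt1 did not follow it, at 254.4 FPKM in WT and 241.5 FPKM in TG mice at 12 months (-0.0737, limma adjusted p = 0.567).

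Snora28, in the initiation factor gene Eif5, read 13.0, 10.4 and 13.6 FPKM in WT and 18.8, 17.7 and 17.7 FPKM in TG mice at 12 months. The TG libraries lay close together above the WT libraries, by 0.52 ± 0.11 (limma adjusted p = 0.00766). Snora23, in the importin gene Ipo7, read 0.844, 0.98 and 1.12 FPKM in WT and 2.54, 1.75 and 2.33 FPKM in TG mice, again without overlap (0.69 ± 0.13, limma adjusted p = 0.00466). Snora47 in Zbed3, at 0.37, 0.358 and 0.409 FPKM in WT and 1.11, 1.58 and 1.09 FPKM in TG mice, rests on 2 to 5 WT reads and on 6 to 18 TG reads. Its difference of 0.71 ± 0.12 (limma adjusted p = 0.00259) was built into the level rule, since Snora47 passed only with the 12-month TG libraries. The hosts Eif5, Ipo7 and Zbed3 differed by 0.0295, -0.10 and 0.12 at 12 months, none called by limma.

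Another 5 loci were called at 12 months with smaller or less stable differences. Snord73a in Rps3a1 read 2.74, 2.32 and 0.909 FPKM in WT and 4.47, 4.73 and 4.5 FPKM in TG mice (0.95 ± 0.24, limma adjusted p = 0.0189). Snord89 and Snord96a were higher by 0.48 ± 0.12 and 0.34 ± 0.09 (limma adjusted p = 0.0161 and 0.0248). Lower were Snora64 in Rps2, by -0.25 ± 0.07, and Snord35b, by -0.18 ± 0.05 (limma adjusted p = 0.0314 and 0.0415). Each of these calls, and that of Snord69, ended when a 12-month library was left out, and the count was 7 without TG replicate 1 and 8 without WT replicate 2. Snord19, Snord53, Snord82, Snora23, Snora28 and Snora31 kept the call in every fit that left out 1 library.

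**Figure D2:**
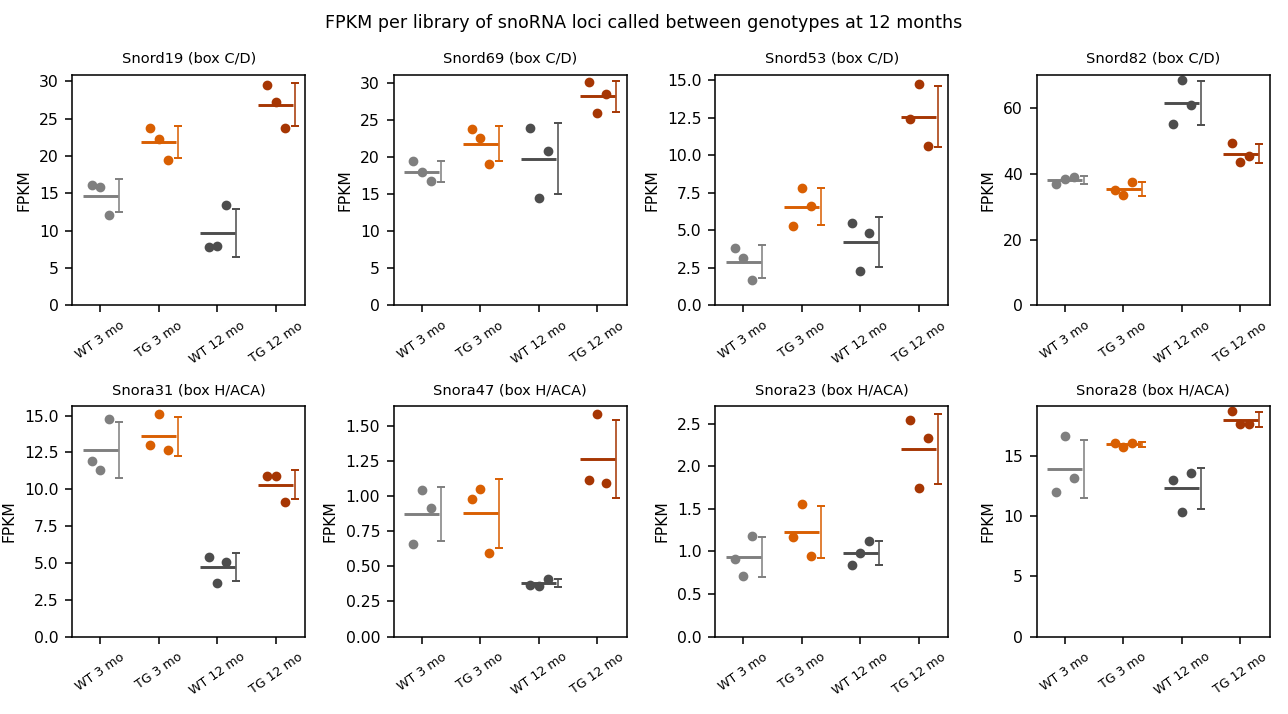
FPKM of 8 loci in each library (points), with the mean (line) and SD (bar) of each group of 3. At 12 months the TG points lie above the WT points in every panel but that of Snord82, where they lie below.

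WT replicate 2 at 12 months was low across short loci. After each entry's mean over the 12 libraries was subtracted, its median was -0.191 over box C/D, -0.282 over box H/ACA and -0.295 over miRNA loci, beside -0.033 over all entries. The other 2 WT libraries of that age stood at -0.265 and -0.179 over box H/ACA loci, and the TG libraries at -0.016, -0.034 and -0.155. The box H/ACA median difference was 0.10 without WT replicate 2, 0.12 without TG replicate 1 and 0.14 without WT replicate 3, and the box C/D median was 0.0341 without TG replicate 3. Its depth was 44.36 M reads. The other libraries of low depth, TG replicate 1 at 12 months with 42.75 M and TG replicate 3 at 3 months with 39.95 M, had medians over box H/ACA loci of -0.016, the highest of its age, and 0.085, the lowest of its age. The part of depth was not tested. Under a mean of at least 5 FPKM the box H/ACA median was 0.0299.

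Groups that did not overlap were found for 17 loci higher and 5 lower in TG mice at 12 months, beside 21.3% and 17.5% of all entries and 38.8% in either direction. Of these, 9 higher and 4 lower were box C/D, and 8 higher and 1 lower were box H/ACA. Cell type markers moved with genotype at 12 months as well. The 4 endothelial markers summed to 22.8 to 24.8 FPKM in WT and 28.3 to 29.7 FPKM in TG libraries, and summed neuronal markers 1329.2 to 1468.8 and 1254.7 to 1270.8 FPKM. The 6 markers of pyramidal and granule neurons summed to 762.3 to 811.6 FPKM in WT and 673.9 to 750.0 FPKM in TG libraries. Camk2a carries most of that sum and was lower (-0.20, limma adjusted p = 0.0417), while Wfs1 and Zbtb20 of the same list were higher in TG mice, by 0.58 and 0.41 (limma adjusted p = 0.00789 and 0.0228). Oligodendrocyte markers summed to 1348.3 to 1465.5 FPKM in WT and 1214.1 to 1302.3 FPKM in TG libraries, with Mbp separated and Mog and Mag overlapping. The part of these markers in the snoRNA differences was not tested, and in bulk tissue fewer cells of a type and less RNA per cell cannot be told apart.

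Calls of locus and host were set side by side, without a test of their difference. Among the 12 loci called at 12 months that have a host in the table, 4 had a host called in the same direction, 0 in the opposite direction, and 8 had a host that was not called. Hosts are measured more precisely, with a median SE of 0.06 against 0.16 for the loci. Box H/ACA loci stood above their host's difference by a median of 0.21, and 7 of 30 stood below it. For box C/D the median was 0.09, with 19 of 54 below. After each entry's mean was subtracted, the hosts' median was -0.003 in WT replicate 2 at 12 months. It was -0.076 and -0.142 in the other WT libraries of that age, while box H/ACA loci were lowest in WT replicate 2, at -0.282. How far this library carries the gap between locus and host was not tested. Hosts as a group gave 4 higher and 8 lower of 60 at 12 months, 6.67% and 13.3% beside 11.2% and 7.71% of all entries. In either direction that is 20.0%, near the 18.9% of all entries. The 19 ribosomal protein hosts gave 0 higher and 5 lower. The median difference of the 27 loci in ribosomal protein hosts was 0.0244, and that of the other 60 loci was 0.18.

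Averaged over both ages, 18 loci were called, 15 higher and 3 lower in TG mice, which is 20.7% beside 25.0% of all entries (15.5% higher, 9.54% lower). Box C/D loci gave 9 higher and 2 lower, box H/ACA loci 6 higher and 1 lower. Snora2b in Kansl2 (0.56 ± 0.14), Snora16a in the spliced RNA Snhg12 (0.33 ± 0.10) and Snord66 (0.27 ± 0.09) were called here and at neither age alone (limma adjusted p = 0.0118, 0.0266 and 0.0408). Snord83b in Rpl3 (-0.30 ± 0.08) and Snora81 in Eif4a2 (-0.18 ± 0.06) were lower (limma adjusted p = 0.0158 and 0.037). The calls of Snora16a, Snord66 and Snora81 were unstable and ended in 10, 11 and 9 of 21 alternatives. Snord83b read 75.8, 73.6 and 60.6 FPKM in WT and 66.0, 53.6 and 51.7 FPKM in TG mice at 3 months, and 52.2, 57.1 and 47.2 against 40.7, 45.8 and 39.2 FPKM at 12 months. The genotypes overlapped for Snord83b at 3 months and did not at 12 months. Without the 3 libraries with Xist reads the count averaged over both ages was 9.

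The difference between the 2 ages in the genotype effect was not called for any of the 87 loci by limma, beside 0.0645% of all entries (0.0359% higher, 0.0287% lower), and 14 loci had an unadjusted p under 0.05. The smallest adjusted p was that of Snora31, 0.119, for an interaction of 0.89 ± 0.18. The median interaction was 0.069 for box C/D and 0.19 for box H/ACA loci, beside -0.0121 over all entries. A call at 12 months and none at 3 months, as for Snora31, therefore does not show a difference between the ages.

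**Figure D3:**
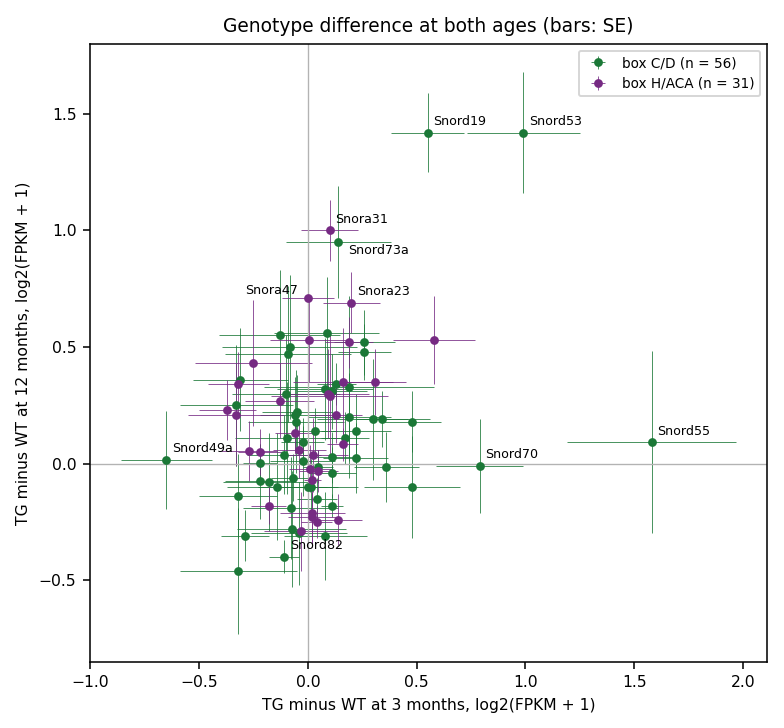
Genotype difference of each locus at 3 months (x axis) and 12 months (y axis) on the log2(FPKM + 1) scale, with SE bars. Snord19 and Snord53 lie high on both axes, Snora31 at 1.00 at 12 months and 0.10 at 3 months, and Snord55 at 1.58 at 3 months and 0.0913 at 12 months.

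Between 3 and 12 months 45 of the 87 loci were called, 13 higher and 32 lower at 12 months. The share of 51.7% compares with 60.6% of all entries (17.7% higher, 42.9% lower). Box C/D loci gave 10 higher and 16 lower of 56, box H/ACA loci 3 higher and 16 lower of 31. The median difference was -0.13 for box C/D and -0.30 for box H/ACA loci, beside -0.0917 over all entries. With median-ratio scaling the loci's medians were -0.0575 and -0.21, and with quantile normalization -0.0519 and -0.23. All libraries with Xist reads were at 3 months, so age and sex cannot be fully told apart here. With Xist as a covariate 7 loci were called higher and 33 lower, together 46.0% beside 50.1% of all entries. The 6 libraries of 12 months lay wholly above those of 3 months for 4 box C/D and 1 box H/ACA loci, beside 8.86% of all entries, and wholly below for 7 and 8, beside 19.3%.

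Of the 27 loci in ribosomal protein genes 13 fell, beside 42.9% of all entries, and of the other 60 loci 19 fell. Snora62 in Rpsa read 82.2, 77.4 and 71.0 FPKM in WT and 77.7, 76.2 and 84.3 FPKM in TG mice at 3 months, against 38.7, 44.7 and 33.2 and 40.4, 37.4 and 35.5 FPKM at 12 months. No 12-month library reached the lowest 3-month library, and the difference was -1.01 ± 0.07 (limma adjusted p = 5.52e-07). Its host Rpsa fell by 0.37 (limma adjusted p = 1.45e-05). Snora68 ranged over 129.0 to 138.0 FPKM in the younger mice and 89.0 to 101.0 FPKM in the older (-0.49 ± 0.03, limma adjusted p = 4.06e-07). Snora68 is 93.2% identical to another annotated snoRNA, so its reads may be shared with that copy. Of the loci 20 are at 90% or more, 15 of 31 box H/ACA and 5 of 56 box C/D loci. This limit thus touches the box H/ACA class more.

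The Rpl13a gene hosts 4 of the loci, Snord32a, Snord33, Snord34 and Snord35a, a cluster known from studies of lipid and oxidative stress. Snord34 read 186.9, 169.1 and 180.9 FPKM in WT and 162.4, 197.1 and 194.9 FPKM in TG mice at 3 months. At 12 months it read 109.2, 117.9 and 102.7 FPKM in WT and 100.3, 107.4 and 88.8 FPKM in TG mice. The ages did not overlap, and the genotypes overlapped at 3 months (-0.80 ± 0.06 by age, limma adjusted p = 1.65e-06). Snord32a, Snord33 and Snord35a differed by -0.65, -0.43 and -0.57 (limma adjusted p = 3.46e-05, 4.61e-04 and 0.0151), and Rpl13a by -0.47. All 4 loci of this host thus fell with age, as their host did. In Rpl23a, Snord42a differed by -0.81 ± 0.07 (limma adjusted p = 2.95e-06) and Snord42b by -0.0349 ± 0.13 (limma adjusted p = 0.834), so that neighbouring loci of 1 host were unlike in this comparison.

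Rises with age were fewer. Snord64 is a box C/D locus with no known RNA target in the imprinted Snrpn to Ube3a region, within Snhg14 in RefSeq. At 3 months it read 6.21, 9.84 and 6.96 FPKM in WT and 8.72, 3.6 and 5.99 FPKM in TG mice, and at 12 months 17.2, 24.0 and 26.4 and 32.5, 22.6 and 25.3 FPKM. The lowest 12-month library stood above the highest 3-month library, with a difference of 1.73 ± 0.18 (limma adjusted p = 1.25e-05). The entry C230091D08Rik, whose name RefSeq gives to Snhg14, differed by -0.0386 (limma adjusted p = 0.425). Of the entries checked beside it, D7Ertd715e was higher at 12 months, by 0.26 ± 0.06 (limma adjusted p = 0.00325). Snrpn and Snurf differed by 0.0271 and 0.0246 (limma adjusted p = 0.672 and 0.704).
Snord71 in Ap1g1, a gene of a clathrin adaptor, lay between 0 and 1.4 FPKM in the younger mice and between 1.7 and 5.02 FPKM in the older (1.43 ± 0.22, limma adjusted p = 1.96e-04). Its 3-month values rest on 0 to 7 reads. Snora30 in the chromatin remodeller gene Srcap ran from 0.719 to 1.45 and from 2.21 to 2.8 FPKM, again with no overlap (0.84 ± 0.08, limma adjusted p = 8.41e-06).
Snord82 in Ncl, which was lower in TG mice at 12 months, was higher at 12 than at 3 months in both genotypes, 53.7 against 36.7 FPKM (0.52 ± 0.05, limma adjusted p = 9.44e-06), while Ncl differed by -0.10. Snord38a lay between 31.1 and 35.5 FPKM in the younger mice and between 40.8 and 56.2 FPKM in the older (0.47 ± 0.07, limma adjusted p = 1.77e-04).

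Kansl2, a gene of the NSL histone acetyltransferase complex, holds Snora2b and Snora34, which moved apart. Snora34 read 13.6, 15.4 and 21 FPKM in WT and 16.0, 18.0 and 19.1 FPKM in TG mice at 3 months, and 6.32, 4.59 and 9.87 and 13.1, 7.23 and 5.97 FPKM at 12 months. Snora2b read 0.319, 0.744 and 0.343 FPKM in WT and 1.38, 0.69 and 1.56 FPKM in TG mice at 3 months, and 2.08, 1.41 and 2.58 and 4.18, 3.17 and 2.73 FPKM at 12 months. For Snora34 every 12-month library lay below every 3-month library. For Snora2b the ages overlapped only in WT replicate 2 at 12 months, which lay below TG replicate 3 at 3 months. The differences were -1.10 ± 0.19 and 1.01 ± 0.14 (limma adjusted p = 4.72e-04 and 7.29e-05), and Kansl2 differed by -0.0524 (limma adjusted p = 0.182). At 3 months Snora2b reached 1 FPKM only in TG replicates 1 and 3. It thus passed the level threshold only with the 12-month libraries, and that choice favoured its rise with age.

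**Figure D4:**
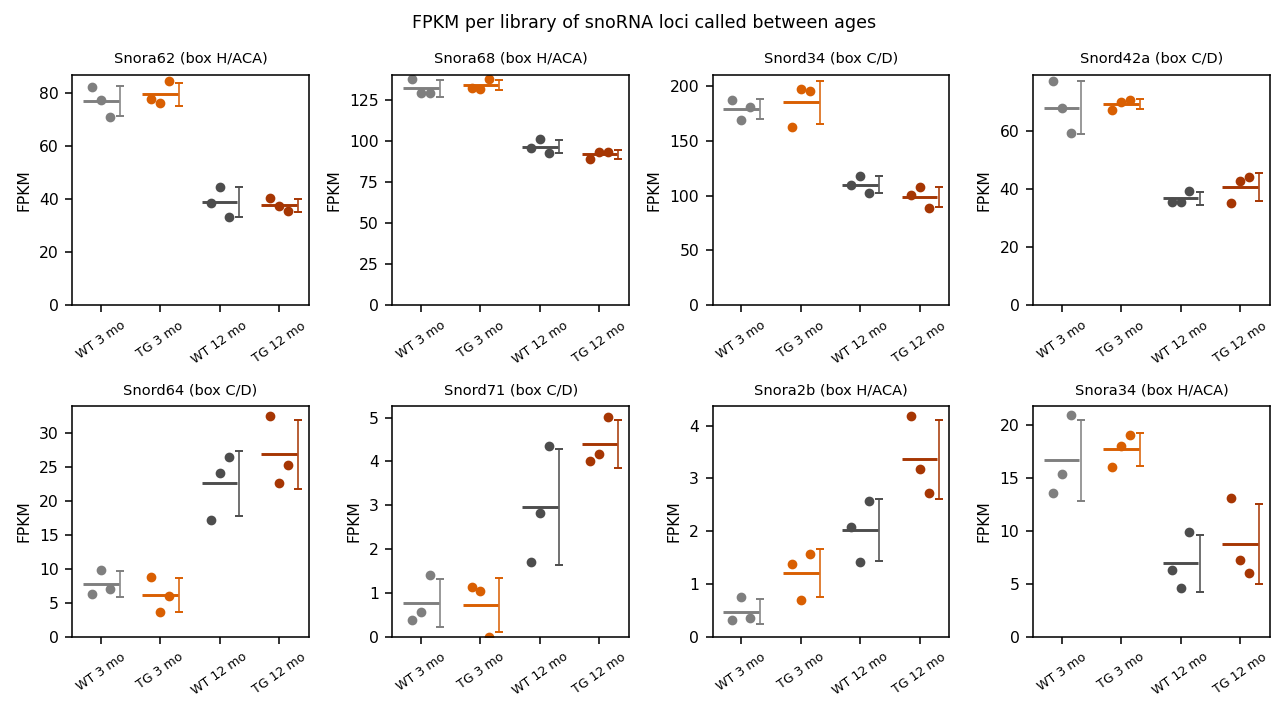
FPKM of 8 loci in each library (points), with the mean (line) and SD (bar) of each group of 3. Snora62, Snora68, Snord34, Snord42a and Snora34 are lower at 12 than at 3 months, and Snord64, Snord71 and Snora2b higher.

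By host, 43 loci called with age have a host in the table: 30 had a host called in the same direction, 6 in the opposite direction and 7 a host that was not called. The 6 opposite loci, all of them higher at 12 months, include Snord15b, Snord37, Snord53, Snord70 and Snord82. Snord70 reached 1 FPKM in just 3 libraries, most of them at 12 months, so the level rule favoured its rise. Of the 60 hosts 4 were higher and 43 lower, beside 17.7% and 42.9% of all entries, with a median SE of 0.04 against 0.11 for the loci. Over 84 pairs that share libraries and hosts the age differences of locus and host had a Spearman correlation of 0.35, given as a description. Of the loci in ribosomal protein hosts, 6 of 9 box H/ACA loci fell and 0 rose, with a median of -0.62. The 18 box C/D loci in such hosts gave 3 higher and 7 lower, with a median of -0.0796. Over all entries 17.7% rose and 42.9% fell, and the box C/D share that fell is near the latter.

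**Figure D5:**
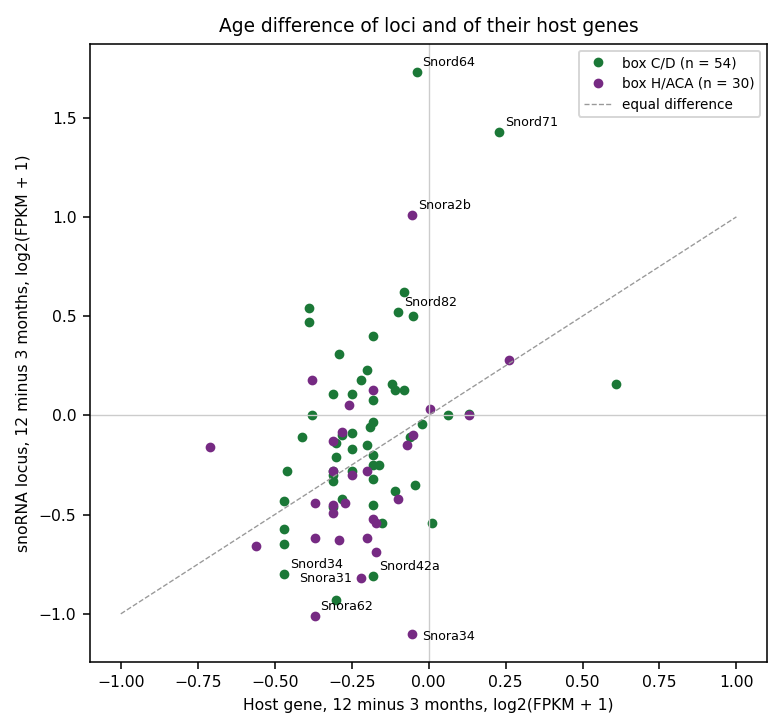
Age difference (12 minus 3 months, log2(FPKM + 1) scale, mean of the genotypes) of each locus (y axis) against that of its host gene (x axis), for 54 box C/D and 30 box H/ACA loci. Most hosts lie below 0, and Snord64, Snord71 and Snora2b lie far above the dashed line of equal difference.

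Age also moved markers of cell types and other short loci. Summed endothelial markers were 29.9 to 36.3 FPKM at 3 months and 22.8 to 29.7 FPKM at 12 months, and those of oligodendrocytes 1330.7 to 1820.9 and 1214.1 to 1465.5 FPKM. Within these lists Cldn5 and Pecam1 were lower at 12 months and Flt1 differed by 0.0226 (limma adjusted p = 0.722), and Mog and Mag were lower, by -0.65 and -0.59. Their part in the snoRNA differences was not tested. Over 211 miRNA loci the median age difference was -0.16, with 35 higher and 74 lower, near that of the snoRNA loci together, -0.17.

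Transcripts of the proteins that carry snoRNAs changed little with genotype, and the proteins themselves were not measured. None of the genes of the 4 core proteins of box C/D particles, the methyltransferase Fbl, Nop56, Nop58 and Nhp2l1, was called by limma at either age (0 and 2 at an unadjusted p under 0.05). Of the genes of the 4 core proteins of box H/ACA particles, the pseudouridine synthase Dkc1, Gar1, Nhp2 and Nop10, only Nop10 was called, higher by 0.20 ± 0.06 at 3 months (limma adjusted p = 0.0444). With age 3 of 4 fell in each core, beside 42.9% of all entries. Fbl, for example, went from 16.9 ± 0.623 to 12.9 ± 0.625 FPKM in WT mice (-0.29 ± 0.04 over both genotypes, limma adjusted p = 1.09e-04). Among 10 assembly factors Rpap3 was lower in TG mice at both ages, by -0.26 and -0.21 (limma adjusted p = 0.0124 and 0.0258). Among 13 genes of intron processing and trimming Drosha, the nuclease that cuts primary miRNA transcripts, fell from 30.9 ± 0.533 to 20.8 ± 1.15 FPKM at 3 months, with differences of -0.55 then and -0.56 at 12 months (limma adjusted p = 4.61e-05 and 2.96e-05). Its partner Dgcr8 was higher by 0.29 and 0.15 (limma adjusted p = 0.00113 and 0.0235). Dis3 of the same list was also called between genotypes at 12 months, higher by 0.20 ± 0.05 (limma adjusted p = 0.0291). With age 4 of the 13 genes were higher and 8 lower, beside 17.7% and 42.9% of all entries. The exonuclease gene Xrn1 was among those higher at 12 months, by 1.32 ± 0.07 (limma adjusted p = 1.15e-07).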

How the data were processed

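Poly-A selected RNA of mouse hippocampus was read from both ends at 100 bases by Illumina sequencing, per the labels' protocols. The authors deposited FPKM values per gene in 1 table with a column for each of the 12 libraries. STAR, BWA, CASAVA and the build mm9 are listed, without roles or versions, in the submitters' processing notes, and the counting tool, annotation and strand setting are not given in the sources used here. Overlapping genes and near-identical copies may therefore share reads.

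No further scaling was applied, and log2(FPKM + 1) was tested for entries at 1 FPKM or more in at least 3 libraries. One limma model (limma 3.58.1, R 4.3.3; trend in eBayes, two-sided, Benjamini-Hochberg over 13945 entries, threshold 0.05) fitted 4 group means and 5 contrasts between them, and adjusted p-values in the text come from limma. The pseudocount of 1 understates changes of low loci. The model was also run on simulated data with the same spread for every entry and no counting error. That run does not bear on the scarcer loci. Reads per locus were recovered as FPKM times RefSeq length times depth, with 97.4% to 98.9% of short-locus values whole within 0.05 of a read, and were used only to describe counting error.

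Hosts are genes that hold the locus on the same strand in GENCODE M21 or RefSeq, both GRCm38, and no coordinates are given because the table was made on mm9. The members and lists were chosen with earlier results of these data known. Named loci are those called in a contrast, up to 15 with the smallest p for each, the 6 highest of each class, the 3 largest rises and falls at each age, those at the threshold, and their hosts. Other pseudocounts, filters and scalings, Xist as a covariate, a replicate block, each age alone and each library left out were tried. Leaving out the libraries with Xist reads was added after seeing the data. Some hosts and sequences are not reported here.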

Additional observations from a re-analysis of the deposited data

Results flagged for a closer look

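For 2 loci every TG library lay on 1 side of the WT libraries at 3 months and on the other side at 12 months, as for 1.29% of all entries. Snord35b read 46.1, 43.6 and 45.7 FPKM in WT and 46.7, 50.0 and 49.5 FPKM in TG mice at 3 months, and 54.0, 58.5 and 51.8 against 46.2, 51.3 and 47.2 FPKM at 12 months. Its genotype difference at 12 months minus that at 3 months was -0.29 ± 0.08 (limma adjusted p = 0.166). Snora70 in Rpl10 read 9.14, 8.77 and 9.53 FPKM in WT and 7.58, 8.04 and 5.24 FPKM in TG mice at 3 months, and 4.93, 4.54 and 3.67 against 5.44, 4.98 and 5.46 FPKM at 12 months. Its interaction was 0.60 ± 0.18 (limma adjusted p = 0.192), so neither was called. Snora70 is 93.4% identical to another annotated snoRNA.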

How the results depend on the processing

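No called value changed sign under any alternative. Counts of loci called and class medians moved as follows. At 3 months 4 loci were called, 1 with no filter, 2 with a mean of at least 5 FPKM and 0 without the 3 libraries with Xist reads. With Xist as a covariate 4 were called, 1 higher and 3 lower. Averaged over both ages the count of 18 fell to 9 without the libraries with Xist reads. The box H/ACA median at 12 months, 0.21, was 0.0299 with a mean of at least 5 FPKM and 0.12 with quantile normalization. The box H/ACA interaction median, 0.19, was -0.0159 with a mean of at least 5 FPKM and 0.0885 with Xist as a covariate. The box H/ACA age median, -0.30, was -0.47 with a mean of at least 5 FPKM, -0.21 with median-ratio scaling, -0.23 with quantile normalization and -0.37 without the libraries with Xist reads. The box C/D age median, -0.13, was -0.0575 and -0.0519 under these scalings. The cause was not tested.

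Leaving out 1 library at a time, counts ran from 0 to 5 at 3 months, 7 to 16 at 12 months, 13 to 17 averaged over both ages, 0 to 1 for the interaction and 40 to 48 for age. Box C/D medians ran from -0.00526 to 0.075, 0.0341 to 0.12, 0.019 to 0.11, -0.00688 to 0.11 and -0.17 to -0.10 in that order. Box H/ACA medians ran from 0.00122 to 0.0412, 0.10 to 0.21, 0.0122 to 0.0571, 0.0935 to 0.20 and -0.36 to -0.23.

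Deviations of same-numbered TG and WT libraries from their group means correlated at 0.0569, -0.456 and -0.349 at 3 months and at 0.0727, 0.00108 and 0.197 at 12 months. With 3 libraries a group these values cannot show whether equal replicate numbers mark paired samples. With the replicate block 2 loci were called at 3 months, 14 at 12 months, 18 averaged over both ages, 0 for the interaction and 49 for age.

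Depth limits the loci with fewer than 10 reads, where a change of a few reads moves the value. The age calls of Snord2, Snord45c, Snord49b, Snord96a and Snord99 ended in 14, 12, 10, 15 and 8 of all alternatives.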

Other observations

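Small Cajal body RNA loci, which guide the modification of spliceosomal RNAs, were scarcer than the snoRNA loci. Scarna13 was higher at 3 months, with WT at 2.49, 1.79 and 1.92 FPKM and TG at 1.62, 1.9 and 2.29 FPKM, than at 12 months, with 0.967, 1.24 and 0.755 FPKM in WT and 1.29, 1.22 and 0.449 FPKM in TG mice. Scarna9 ran from 0.567 to 5.01 FPKM and overlapped between all groups. The minor spliceosome loci Rnu11 and Rnu12 stayed at or below 0.331 and 0.207 FPKM in every library.

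Replication-dependent histone genes, whose transcripts also lack a poly-A tail, had 66 entries, of which 21 were tested. At 3 months 18 of these were higher and 0 lower in TG mice by limma, beside 7.95% and 3.49% of all entries. Their median difference was 0.70, and 19 had an unadjusted limma p under 0.05. Sex was not balanced at that age, and its part was not tested. At 12 months 8 were higher and 1 lower, beside 11.2% and 7.71% of all entries, with a median of 0.29.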
